A study of Mus musculus with 6 samples.

Results

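The 10 genes described here are taken as markers of the fibroblasts that form the lining layer of the synovium, the thin membrane that encloses a joint. Whether each is confined to that layer was not tested. They are Prg4, Clic5, Tspan15, Htra1, Htra4, Cd55, Pdpn, Fap, Hbegf and Cdh11. They were picked out by symbol from a table of 24348 genes, and all 10 were in it and passed the filter on low counts. Fibroblasts were sorted by flow cytometry from the dissected and collagenase-digested synovium of adult C57BL/6 mice. There were 3 libraries from mice given immune complexes (IC) and 3 from mice given vehicle, both by intravenous injection. Per the study's methods the IC were ovalbumin bound by a rabbit antiserum against it, and mice of both sexes were used. The hour of collection after injection in this experiment, and whether 1 library holds 1 mouse or several, were not given in the sources used here. P-values therefore measure the spread between these libraries, which may be partly technical.

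The synovium has a lining layer that faces the joint cavity and a sublining layer beneath it that carries vessels and nerves. Lining fibroblasts secrete lubricin, the product of Prg4, and hyaluronan, which together keep joint surfaces sliding, and they hold to one another through cadherin-11, the product of Cdh11. Immune complexes are antibodies bound to their antigen, which circulate in several autoimmune and infectious diseases and can settle in tissues. The whole synovium was taken for the sort, so in these bulk libraries fewer lining cells and less of an RNA per lining cell cannot be told apart.

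Total counts were 40114331 to 56714304 per library, and the 10 markers together held 50000 to 80287 of them. Each marker had at least 237 counts in every library. Values below are normalized read counts, which are counts divided by the library's size factor. A gene is said to be called, or to rise or fall, where DESeq2 gave it a p under 0.05 after Benjamini-Hochberg adjustment. Of the 19925 genes tested, 3870 were given no adjusted p and count as not called. Vehicle replicate 1 was the lowest library for 4 of the 10 markers and IC replicate 3 the highest for 4.

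The lining markers did not move together after IC. Prg4 rose 1.92-fold, Clic5 fell to 0.625 of its vehicle level and Tspan15 fell to 0.536. The other 7 markers were not called, with log2 fold changes from −0.30 to 0.27. DESeq2 called 2.1% of all genes tested, 1.03% higher and 1.07% lower after IC, and 3 of the 10 markers were among them, 1 higher and 2 lower. The edgeR quasi-likelihood test called 0.186% of all genes and 0 of the 10 markers, with 6 markers at an unadjusted p under 0.05 in either tool, beside 9.8% of all genes in DESeq2 and 9.64% in edgeR. The median log2 fold change of the 10 markers was −0.09, beside −0.002 over all genes tested. It was 0.023 with 1 surrogate variable as a term and 0.028 without vehicle replicate 2.

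**Figure D1:**
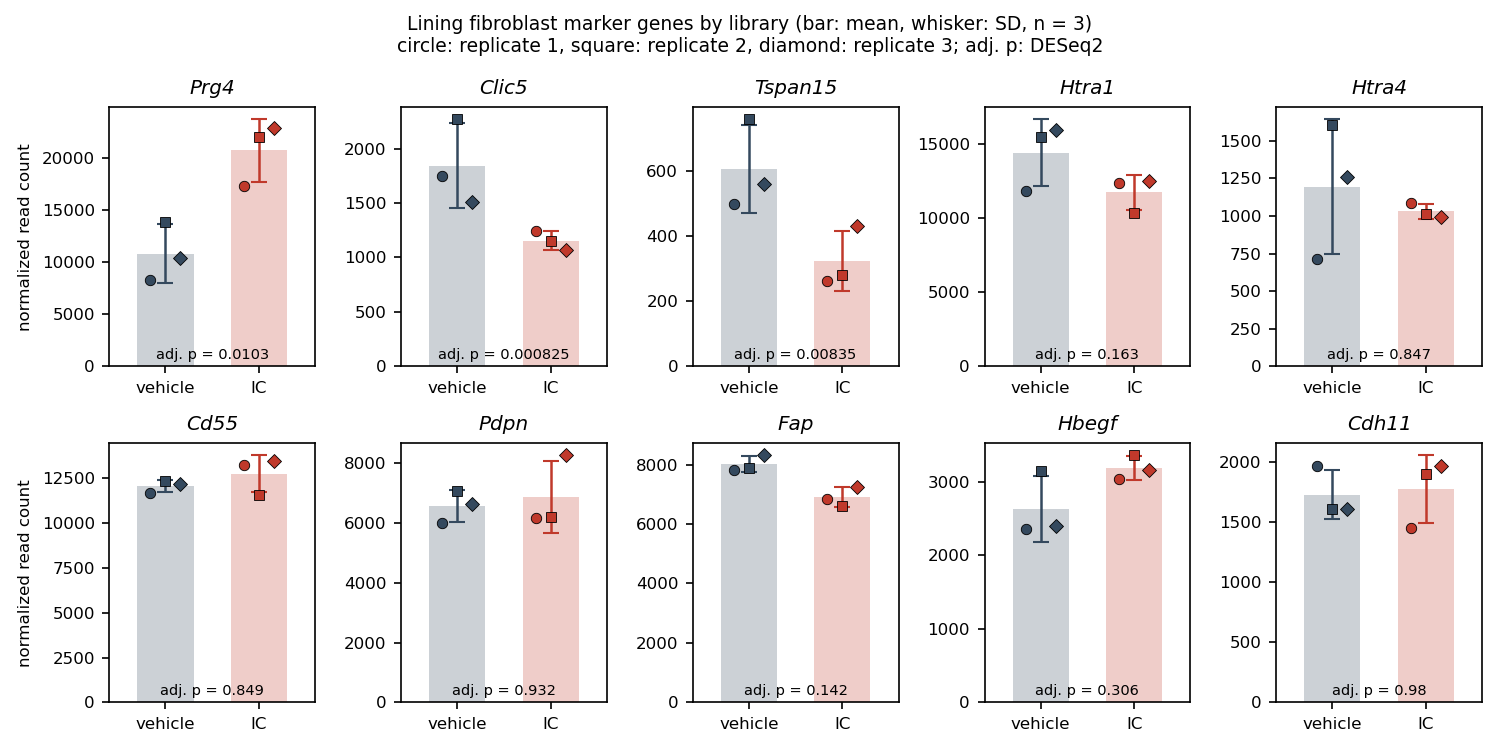
Normalized read counts of the 10 lining markers by library, with vehicle in grey and IC in red, bars at the mean and whiskers of 1 SD over 3 libraries. Prg4 lies higher in every IC library, Clic5, Tspan15 and Fap lie lower in every IC library, and the other 6 overlap between groups.

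Prg4 encodes lubricin (proteoglycan 4), the mucin-like glycoprotein that coats cartilage and the synovial surface, and it is the marker most used for the lining layer. The gene lies on chromosome 1 (chr1:150449412-150466165, minus strand, GRCm38). Its normalized read counts were 17352, 22054 and 22899 in IC replicates 1, 2 and 3, and 8263, 13855 and 10408 in vehicle replicates 1, 2 and 3. All 3 IC libraries were above all 3 vehicle libraries, and the lowest library of each group was its replicate 1. The means were 20768 ± 2989 (SD, n = 3) after IC and 10842 ± 2821 after vehicle. The log2 fold change was 0.94 ± 0.248 (SE), with a 95% interval of 0.45 to 1.42 and an adjusted p of 0.0103 in DESeq2. Over all genes tested, 15.8% had 3 IC values apart from 3 vehicle values, and 4 of the 10 markers did so, with Prg4 the 1 that was apart on the higher side. The adjusted p was 0.0541 in edgeR. In DESeq2 the call was lost when IC replicate 2 (0.89, adjusted p = 0.152) or 3 (0.86, 0.155) or vehicle replicate 3 (0.91, 0.129) was left out.

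The second group is 2 membrane-associated proteins that fell. Clic5 encodes a chloride intracellular channel family protein that links the membrane to the actin cytoskeleton, and it lies on chromosome 17 (chr17:44188584-44280172, plus strand, GRCm38). Normalized read counts of Clic5 were 1239, 1151 and 1065 after IC and 1748, 2268 and 1505 after vehicle. The 3 IC libraries lay close together and below every vehicle library, with means of 1152 ± 87.0 and 1840 ± 389.6 (SD, n = 3). The log2 fold change was −0.68 ± 0.15 (SE), with a 95% interval of −0.97 to −0.38 and an adjusted p of 0.000825 in DESeq2. Clic5 was called with each of the 6 libraries left out in turn, at log2 fold changes of −0.80 to −0.50. It was not called in edgeR (adjusted p = 0.086) or limma-voom (adjusted p = 0.0762).

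Tspan15 encodes a tetraspanin of the TspanC8 group, which bind the protease ADAM10 and steer it to its substrates, and it lies on chromosome 10 (chr10:62185396-62231251, minus strand, GRCm38). Tspan15 had normalized read counts of 261.2, 281.1 and 430.1 after IC and 499.3, 758.5 and 559.3 after vehicle. The groups did not overlap, and IC replicate 3 was the nearest to the vehicle libraries. The means were 324.1 ± 92.33 and 605.7 ± 135.7 (SD, n = 3). Its log2 fold change was −0.90 ± 0.234 (SE), with a 95% interval of −1.36 to −0.44 and an adjusted p of 0.00835 in DESeq2. Tspan15 was called in 2 of the 6 fits that left a library out. Leaving out IC replicate 1 (−0.77, adjusted p = 0.123) or 2 (−0.81, 0.124), or vehicle replicate 2 (−0.70, 0.187) or 3 (−0.95, 0.0595), ended it. It was also lost with 1 surrogate variable (−0.72, adjusted p = 0.0833), in edgeR (0.148) and in limma-voom (0.145).

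The RefSeq promoter table (GRCm38.p6) held 5 of the 10 markers, which were Clic5, Tspan15, Htra1, Cd55 and Pdpn. The sequences of the pair of called markers in it are shown, and both of these fell after IC. Whether the sequences have a part in these changes was not tested. Each is written 5′ to 3′ on the gene's strand and ends at or before the RefSeq start, and for Tspan15 the last 33 bases of the window, which lie inside the GENCODE gene, are left off. Capitals mark CG dinucleotides. The Clic5 stretch is chr17:44188322-44188571 (plus strand) and the Tspan15 stretch is chr10:62231252-62231468 (minus strand).
Clic5: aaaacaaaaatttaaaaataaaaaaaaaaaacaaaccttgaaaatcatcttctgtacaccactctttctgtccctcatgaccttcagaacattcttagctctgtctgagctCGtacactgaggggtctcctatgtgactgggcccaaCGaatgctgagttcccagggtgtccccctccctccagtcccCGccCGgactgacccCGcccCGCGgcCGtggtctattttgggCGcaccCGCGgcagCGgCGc
Tspan15: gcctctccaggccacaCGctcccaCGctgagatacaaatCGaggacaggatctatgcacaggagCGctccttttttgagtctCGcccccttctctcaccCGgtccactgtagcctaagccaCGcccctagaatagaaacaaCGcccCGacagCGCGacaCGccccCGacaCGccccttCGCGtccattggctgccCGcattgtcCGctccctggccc
The Clic5 promoter opens with an A-rich stretch and holds most of its 13 CG dinucleotides near the start site. Those of Tspan15 are spread along the sequence, with 18 in the 217 bases shown and 23 in the whole window of 250. The G and C content of the 250 bases was 52.8% for Clic5 and 63.2% for Tspan15, beside a median of 52.4%, and of 6 CG dinucleotides, over 32851 RefSeq promoters. Searches on both strands for a full CREB site (TGACGTCA), a FOXO site (GTAAACA), a palindromic SMAD site (GTCTAGAC), a TEAD site (GGAATG), a STAT site (TTCNNNGAA) and the NF-kB consensus found none in either. A TATA box (TATAAA) on the gene strand was not found in either. The AP-1 site (TGANTCA) was found once, as TGAGTCA at 12 to 6 bases before the RefSeq start of Tspan15, and 6.75% of all promoters held 1. This match lies in the 33 bases that are not shown, inside the GENCODE gene. Of the remaining 3 markers in the table, Pdpn held a FOXO site 153 to 147 bases before its start, which 3.17% of all promoters held. The other shares were 1.55% for CREB, 0.167% for SMAD, 12.6% for TEAD, 7.02% for STAT, 7.25% for NF-kB and 7.59% for TATAAA.

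The third group is 3 proteases, of which none was called. Htra1 encodes a secreted serine protease that cleaves matrix proteins, and it lies at chr7:130936111-130985660 (plus strand). Normalized read counts of Htra1 were 12350, 10374 and 12489 after IC and 11862, 15480 and 15957 after vehicle. The groups overlapped only through vehicle replicate 1, which fell between IC replicates 1 and 2. Its log2 fold change was −0.30 ± 0.112 (SE), with a 95% interval of −0.52 to −0.08 and an adjusted p of 0.163 in DESeq2. Without vehicle replicate 1 it was −0.42 and was called (adjusted p = 0.00068).

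Htra4 encodes a secreted relative of HtrA1 and lies at chr8:25024929-25038962 (minus strand). Htra4 had normalized read counts of 1088, 1016 and 993.8 after IC and 716.6, 1606 and 1260 after vehicle. The IC libraries differed little, with an SD of 49.03, while the vehicle libraries spread on both sides of them, with an SD of 448.2. Its log2 fold change was −0.21, with a 95% interval of −0.62 to 0.21 and an adjusted p of 0.847 in DESeq2. It was −0.48 without vehicle replicate 1 (adjusted p = 0.0319) and 0.07 without vehicle replicate 2 (adjusted p = 0.984). Of the exon bases of Htra4, 32.95% overlap Gm16933, a gene on the other strand, and the use of strand in counting is not given in the sources used here, so its level is uncertain.

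Fap encodes fibroblast activation protein, a membrane-bound peptidase of the dipeptidyl peptidase family, and lies at chr2:62500943-62574075 (minus strand). Fap had normalized read counts of 6850, 6599 and 7258 after IC and 7817, 7889 and 8308 after vehicle. Every IC library was below every vehicle library, with means of 6902 ± 332.2 and 8005 ± 265.1 (SD, n = 3). The log2 fold change was −0.21 ± 0.0782 (SE), with a 95% interval of −0.37 to −0.06, and the unadjusted p of 0.00635 became 0.142 after adjustment in DESeq2. Fap was not called under any of the alternatives or with any library left out, and its log2 fold change stayed between −0.25 and −0.18 with libraries left out.

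The fourth group is 3 surface proteins, and their values overlapped between groups. Cd55 encodes decay-accelerating factor, which protects cells from complement, and lies at chr1:130439027-130462744 (minus strand). Its normalized read counts were 13231, 11582 and 13432 after IC and 11683, 12339 and 12181 after vehicle. Cd55 had the narrowest interval around 0 of the 6 markers whose groups overlap, with a log2 fold change of 0.08 and a 95% interval of −0.08 to 0.24 (adjusted p = 0.849 in DESeq2). Its near copy Cd55b, with which it may share reads and which is named after its values were seen, had means of 224.6 after IC and 212.5 after vehicle.

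Pdpn encodes podoplanin, a sialomucin that binds CLEC-2 on platelets and ezrin-family proteins inside the cell, and lies at chr4:143267431-143299564 (minus strand). Its normalized read counts were 6159, 6184 and 8255 after IC and 6008, 7062 and 6613 after vehicle. IC replicate 3 stood above the other 5 libraries, and the log2 fold change of 0.07 (95% interval −0.16 to 0.29, adjusted p = 0.932 in DESeq2) became −0.09 without it. Cdh11, which encodes the adhesion protein cadherin-11, lies at chr8:102632095-102785642 (minus strand). It had normalized read counts of 1446, 1896 and 1968 after IC and 1964, 1611 and 1606 after vehicle. Replicate 1 was the lowest library of the IC group and the highest of the vehicle group. The log2 fold change was 0.03, with a 95% interval of −0.24 to 0.31 (adjusted p = 0.98 in DESeq2), and it ranged from −0.05 to 0.16 with libraries left out.

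Hbegf encodes heparin-binding EGF-like growth factor, a membrane-anchored ligand of the EGF receptor, and lies at chr18:36504927-36515805 (minus strand). Its normalized read counts were 3036, 3360 and 3157 after IC and 2358, 3153 and 2397 after vehicle. The groups overlapped only through vehicle replicate 2, which lay between IC replicates 1 and 3. The means were 3184 ± 163.9 and 2636 ± 448.2 (SD, n = 3). The log2 fold change was 0.27 ± 0.121 (SE), with a 95% interval of 0.04 to 0.51 and an adjusted p of 0.306 in DESeq2. It was called without vehicle replicate 2 (0.42, adjusted p = 0.00326) and with 1 surrogate variable (0.40, adjusted p = 0.00629).

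**Figure D2:**
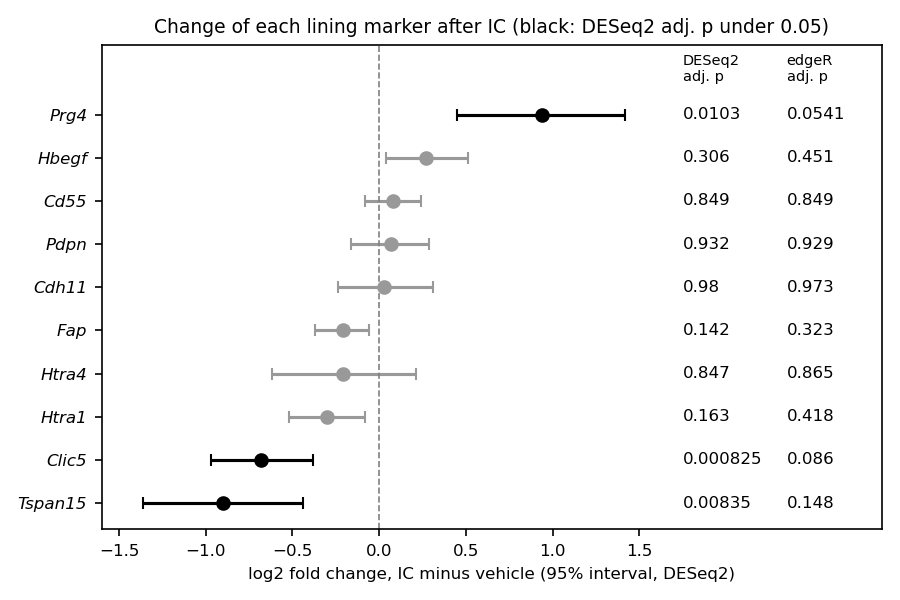
Log2 fold change of each lining marker, IC minus vehicle, with its 95% interval from DESeq2 and the adjusted p of both tools printed at the right. Black points are the 3 markers called in DESeq2, which lie at 0.94 (Prg4), −0.68 (Clic5) and −0.90 (Tspan15).

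**Figure D3:**
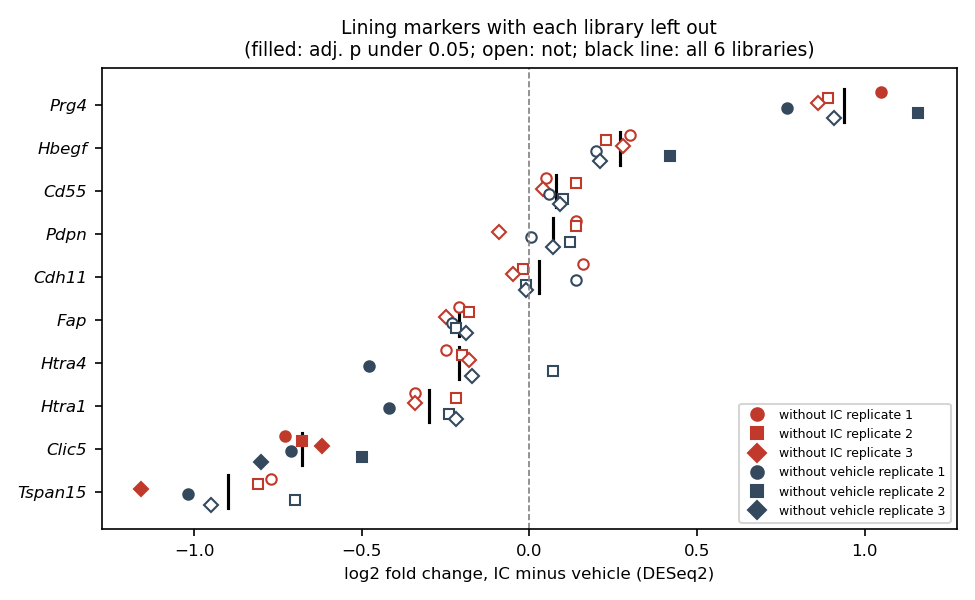
Log2 fold change of each lining marker with each of the 6 libraries left out, where filled symbols have an adjusted p under 0.05 and the black line is the value with all libraries. Clic5 is filled in all 6 fits, Prg4 in 3 and Tspan15 in 2, while Htra1, Htra4 and Hbegf are filled in 1 fit each.

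The markers differed widely in level. On the scale of normalized read counts per kilobase of exon, means over the 6 libraries of both groups ran from 4545 for Htra1 down to 56.82 for Tspan15. Htra1 was followed by Pdpn (3695), Prg4 (3693), Cd55 (2557), Fap (1316), Hbegf (602), Htra4 (463.1), Cdh11 (196.4) and Clic5 (170.3). The ranges over libraries did not overlap between Cd55 and Fap, Fap and Hbegf, Htra4 and Cdh11, or Clic5 and Tspan15. The other neighbours in this order overlapped and were not told apart, and Prg4 had the widest range, from 1931 to 5350. Among 19638 genes with a length, Htra1, Pdpn, Prg4 and Cd55 had levels at percentiles 98.5, 98.1, 98.1 and 97.1, while Tspan15 was at percentile 33.4, under the median gene at 135.1 per kilobase. Within groups the order differed at the top. After IC, Prg4 had the highest mean, at 4852 per kilobase, ahead of Htra1 (4077) and Pdpn (3779), though its range overlapped that of Htra1. After vehicle, Prg4 (2533) came behind Htra1 (5013) and Pdpn (3611), apart from both, and overlapped Cd55 (2487). At the low end Clic5 (131.1) was below Cdh11 (198.8) and apart from it after IC, while after vehicle Clic5 (209.6) and Cdh11 (194) overlapped. Tspan15 was the lowest marker in both groups, at 39.61 and 74.02.

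Prg4 made up a larger share of the marker reads after IC. It held 27.54%, 34.19% and 31.83% of the counts of the 10 markers in the IC libraries and 15.61%, 20.99% and 17.12% in the vehicle libraries, so the groups did not overlap. The other 9 markers together had 894.4 to 1013 CPM, which are counts scaled to the library total, after IC and 960.3 to 1059 after vehicle, which overlapped. Ratios of raw counts within a library, which need no scaling between libraries, were computed for pairs chosen after the values were seen and are given with no test. Prg4 was apart on the higher side after IC, and Clic5 and Tspan15 on the lower side. Their ratios therefore had to be apart and describe only the size of the shift. There were 14.01, 19.15 and 21.51 counts of Prg4 per count of Clic5 after IC, and 4.727, 6.109 and 6.914 after vehicle. Prg4 per Tspan15 was 66.44, 78.44 and 53.24 after IC and 16.55, 18.27 and 18.61 after vehicle. Among the vehicle libraries this ratio varied little (17.81 ± 1.105, SD, n = 3), although their normalized Prg4 counts ran from 8263 to 13855. Prg4 per Cd55 was 1.311, 1.904 and 1.705 after IC and 0.7072, 1.123 and 0.8545 after vehicle, so these groups did not overlap either. This ratio and the share above use the same Prg4 counts as the fold change, so they are not separate evidence.

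**Figure D4:**
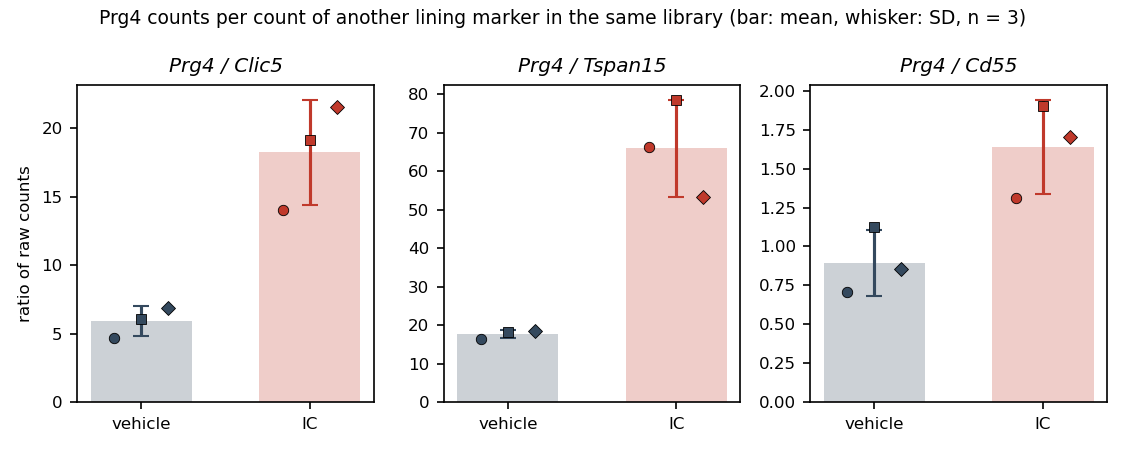
Raw counts of Prg4 divided by those of Clic5, Tspan15 or Cd55 in the same library, with vehicle in grey and IC in red, bars at the mean and whiskers of 1 SD over 3 libraries. Every IC library lies above every vehicle library in the 3 panels, with means of 18.22 against 5.917 for Clic5, 66.04 against 17.81 for Tspan15 and 1.640 against 0.8948 for Cd55. For Clic5 and Tspan15 this had to follow, because Prg4 was higher and they were lower in every IC library.

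Whether the balance of lining and sublining genes shifted was described with 14 sublining fibroblast markers. Neither list was tested for being confined to its layer, so the values describe the lists and not the layers. The mean log2 level of the 10 lining markers minus that of the sublining markers was −2.85, −2.71 and −2.75 in the IC libraries and −2.81, −2.77 and −2.93 in the vehicle libraries. The groups overlapped, and their means differed by 0.07 against SDs of 0.07 and 0.08. The lining mean moved by −0.08 after IC and the sublining mean by −0.15. The lining mean averages Prg4, which rose, with Clic5 and Tspan15, which fell, so opposite changes offset each other in it. Of the 14 sublining markers 0 rose and 2 fell, namely Apoe (log2 fold change −0.42, adjusted p = 0.000501) and Col15a1, which encodes a basement membrane collagen (−0.31, adjusted p = 0.0283), and their median was −0.22. Col15a1 was called with 2 of 6 libraries left out, and not when IC replicate 2 (adjusted p = 0.223) or 3 (0.205) or vehicle replicate 2 (0.161) or 3 (0.321) was the one left out. Of 8 general fibroblast genes 0 rose and 2 fell, Lum (lumican, −0.36, adjusted p = 0.0025) and Col3a1 (a fibrillar collagen, −0.38, adjusted p = 0.00679), with a median of −0.16. Lum was lost without vehicle replicate 3 (adjusted p = 0.0751). Col3a1 was lost when IC replicate 1 (0.0701) or 2 (0.119) or vehicle replicate 2 (0.161) or 3 (0.173) was left out. Without vehicle replicate 1, the sublining markers Thy1, Cd34, Clec3b, Cxcl12, Sfrp1, Gsn and Cd248 were also called lower (adjusted p of 0.000137 to 0.0388). So were the fibroblast genes Pdgfra, Col1a1, Col1a2 and Col6a1 (0.00852 to 0.0496). None of these was called with any other library left out. Without vehicle replicate 1, DESeq2 called 320 of all genes higher and 357 lower. With all libraries, edgeR called 0 genes of either list. Over all genes tested DESeq2 called 1.07% lower. An unadjusted p under 0.05 was found for 8 of the 14 sublining markers in DESeq2 and 7 in edgeR. For the 8 general fibroblast genes these counts were 3 and 2, beside 9.8% and 9.64% of all genes. Both lists were chosen with earlier results known.

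Of 76 further genes related to the markers by pathway, partner or family, 73 were in the table and 70 were tested. DESeq2 called 4 of them higher and 5 lower, with a median log2 fold change of 0.00, and edgeR called 1. Over all genes tested DESeq2 called 2.1% and edgeR 0.186%. The lists were chosen with earlier results known, so these counts do not measure enrichment. Of 12 companion genes of the lining layer, 10 were tested, 2 rose and 2 fell, with a median of 0.09. Has1, a hyaluronan synthase, was the 1 called by both tools. Its normalized read counts were 38114, 38255 and 40155 after IC and 28346, 23572 and 25575 after vehicle. The IC libraries were all higher, with a log2 fold change of 0.59 ± 0.0814 (SE) and adjusted p-values of 6.93e-10 in DESeq2 and 0.0228 in edgeR. Has1 and Prg4, which edgeR did not call (adjusted p = 0.0541), were each higher in every IC library than in any vehicle library. Which cells of the synovium these RNAs came from was not tested.

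Timp1, an inhibitor of matrix metalloproteinases, had normalized read counts of 914.6, 1135 and 1172 after IC and 670.7, 428.8 and 645.6 after vehicle (log2 fold change 0.89, adjusted p = 0.000272 in DESeq2 and 0.0836 in edgeR). Vcam1, an adhesion molecule for leukocytes, had 4078, 3899 and 4046 after IC and 4738, 5900 and 5500 after vehicle (−0.42, adjusted p = 0.00146 in DESeq2 and 0.0856 in edgeR). Both were apart between groups and were called with each library left out in DESeq2. Sox5, a transcription factor, was the other companion that fell and is named after its value was seen (−0.42, adjusted p = 0.00301 in DESeq2 and 0.0795 in edgeR). Gas6, a ligand of the receptor Axl, had the highest level of the companions, at 7521 per kilobase, and a log2 fold change of −0.20 with a 95% interval of −0.64 to 0.23 (adjusted p = 0.865 in DESeq2). It was called only in the fit that left out vehicle replicate 1 (−0.39, adjusted p = 0.00248).

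Of 14 genes of pathways linked to Prg4 expression in joint tissue, 1 rose and 1 fell, with a median of 0.06. Tgfb2, a TGF-beta ligand, had normalized read counts of 5804, 5242 and 6421 after IC and 7675, 8741 and 8036 after vehicle. It was lower in all IC libraries (log2 fold change −0.49, adjusted p = 8.51e-05 in DESeq2 and 0.0593 in edgeR) and was called with each library left out in DESeq2. Nfatc1, a transcription factor of the calcineurin pathway, had 11742, 12467 and 10209 after IC and 9573, 8500 and 8247 after vehicle (0.39, adjusted p = 0.00402 in DESeq2 and 0.14 in edgeR). Nfatc1 was not called when IC replicate 1 (adjusted p = 0.0674) or 2 (0.0992) or vehicle replicate 2 (0.0558) or 3 (0.105) was left out. Tgfbr2, a TGF-beta receptor, had the highest level of this list, at 3132 per kilobase, and a log2 fold change of −0.19 (95% interval −0.38 to 0.01, adjusted p = 0.485 in DESeq2).

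Around Hbegf, 13 other EGF-family ligands, receptors, sheddases and partners were tested, 1 rose and 1 fell, with a median of −0.05. Ereg, which encodes the EGF receptor ligand epiregulin, had normalized read counts of 61.71, 59.95 and 175.6 after IC and 28.7, 17 and 14.59 after vehicle. It was higher in all IC libraries but low throughout, with a log2 fold change of 2.29 ± 0.572 (SE) and an adjusted p of 0.00507 in DESeq2 and 0.134 in edgeR. IC replicate 3 held the highest value, and without it the log2 fold change was 1.59 (adjusted p = 0.283). The call was also lost without vehicle replicate 3 (2.12, adjusted p = 0.0606). The EGF receptor gene Egfr, named after its value was seen, had means of 21613 ± 850.5 after IC and 22451 ± 2277 after vehicle (95% interval of the log2 fold change −0.22 to 0.11, adjusted p = 0.922 in DESeq2). Cd9, a tetraspanin that associates with the Hbegf product, had the highest level of the list, at 6804 per kilobase, and a log2 fold change of 0.01 (95% interval −0.17 to 0.18).

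**Figure D5:**
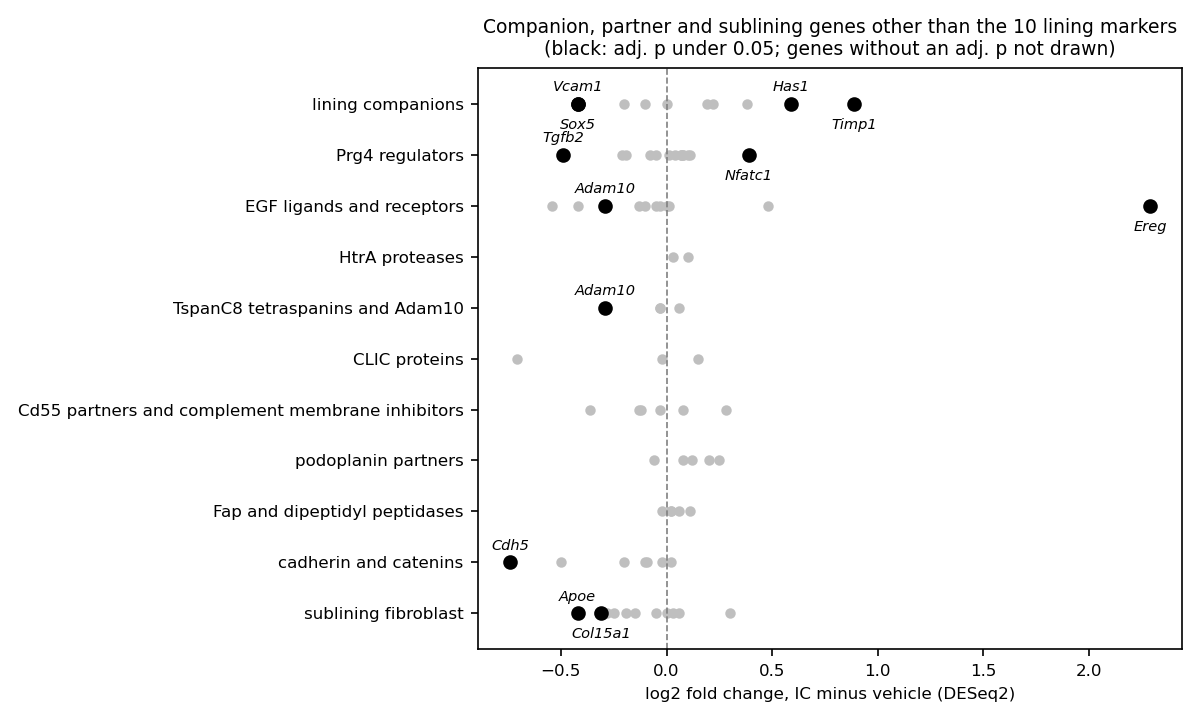
Log2 fold change in DESeq2, IC minus vehicle, of the companion, partner, family and sublining genes other than the 10 lining markers, with 1 row per list and called genes in black. The black points are Has1, Timp1, Vcam1, Sox5, Tgfb2, Nfatc1, Ereg, Adam10, Cdh5, Apoe and Col15a1, with Adam10 drawn in both lists that hold it and Ereg farthest from 0 at 2.29.

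The protease partner of Tspan15 fell with it. Adam10 had normalized read counts of 3658, 3497 and 3776 after IC and 4387, 4380 and 4611 after vehicle, lower in every IC library (log2 fold change −0.29, adjusted p = 0.0266 in DESeq2 and 0.147 in edgeR). This call was lost when IC replicate 1 (adjusted p = 0.0819) or 2 (0.154) or vehicle replicate 3 (0.126) was left out. The other TspanC8 genes were not called in either tool. Their log2 fold changes were −0.03 for Tspan5 and for Tspan14 and 0.06 for Tspan17, while Tspan33 had at most 23.1 normalized counts in any library.

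Of the other chloride intracellular channel family genes, 0 of 4 were called in DESeq2 or in edgeR, and 1 (Clic6) had an unadjusted p under 0.05 in each tool. Clic4 had the highest level of the family, at 2548 per kilobase, and a log2 fold change of 0.15 (95% interval −0.02 to 0.32, adjusted p = 0.563 in DESeq2), while Clic1 had −0.02. Clic6 had 190.6, 195.3 and 112 normalized counts after IC and 223.8, 293.8 and 295.5 after vehicle. Its groups did not overlap, but it was not called (−0.71, 95% interval −1.27 to −0.15, adjusted p = 0.216 in DESeq2), and Clic3 had means of 18.05 and 19.58. Of the 2 other HtrA genes, Htra3 had means of 25309 ± 1170 after IC and 24780 ± 2187 after vehicle (95% interval of the log2 fold change −0.13 to 0.19). The mean level of Htra3, 5642 per kilobase, was above the 4545 of Htra1. Their ranges over libraries overlapped (5024 to 5954 and 3603 to 5543), so they were not told apart. Htra2 had a log2 fold change of 0.10.

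None of the 6 complement inhibitors and partners around Cd55, the 5 partners of podoplanin or the 5 peptidases related to Fap was called in DESeq2 or in edgeR, with medians of −0.08, 0.12 and 0.02. In each tool 0, 2 and 0 of them had an unadjusted p under 0.05, which 9.8% of all genes had in DESeq2 and 9.64% in edgeR. The most abundant per kilobase were Adgre5, which encodes CD97, the receptor for the Cd55 product (log2 fold change −0.13), Msn, which encodes the ezrin-family protein moesin (0.20, adjusted p = 0.156 in DESeq2, groups apart), and Dpp4 (0.06). Of 7 cadherin and catenin genes 1 fell. This was Cdh5, a cadherin of endothelial cells (−0.74, adjusted p = 0.0496 in DESeq2 and 0.319 in edgeR), called when IC replicate 1 was left out (adjusted p = 0.0445) and lost when any other single library was (adjusted p of 0.0532 to 0.245). Ctnnb1, which encodes the beta-catenin that binds cadherin tails, was the most abundant of these, with a log2 fold change of 0.02.

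Markers of other cells moved with treatment, and their part in the changes above was not tested. The summed level of 8 chondrocyte markers was 746.1 to 841.3 CPM after IC and 465.6 to 695.8 after vehicle, apart and on the same side as Prg4, which chondrocytes of the cartilage surface also express. Comp made most of this sum, at 621.6 to 719.5 after IC and 366.3 to 592.8 after vehicle, and was not called (log2 fold change 0.39, adjusted p = 0.577 in DESeq2). Of the defining markers, Acan was called higher (log2 fold change 1.34, adjusted p = 0.0029 in DESeq2 and 0.108 in edgeR), and that call was lost without IC replicate 2 (1.02, adjusted p = 0.147). Col2a1 went the other way, at 3.646 to 4.957 CPM after IC and 4.984 to 8.992 after vehicle, and was not called (−0.75, adjusted p = 0.107 in DESeq2). Sox9 and Chad overlapped between groups and were not called. Col9a1 was at 0 in 2 libraries and Matn3 in 1. The 7 skeletal muscle markers summed to 18.62 to 44.22 after IC and 45.62 to 89.41 after vehicle, and the 4 myogenic markers to 4.479 to 21.59 and 28.32 to 61.11, both on the same side as Clic5 and Tspan15, with no marker of either list at 0 in any library. The highest of these were Des (5.701 to 18.27 after IC and 24.16 to 40.31 after vehicle) and Pax7 (2.795 to 13.56 and 14.71 to 34.98). Of the muscle markers only Des was apart between groups. Tnnt3 overlapped (10.01 to 19.02 after IC and 14.98 to 18.37 after vehicle), as did Acta1, Myh4, Myh1, Ckm and Mylpf. The 4 myogenic markers were each apart.

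The 7 blood endothelial markers summed to 182.6 to 237.5 CPM after IC and 241.4 to 281.5 after vehicle, apart and on the lower side after IC, and 5 lymphatic endothelial markers to 165.3 to 316.9 and 310.0 to 361.8, which overlapped. Mural cell markers (205.2 to 267.0 against 242.5 to 246.1), Schwann cell markers (20.84 to 98.88 against 30.71 to 74.88) and adipocyte markers (7.32 to 9.403 against 9.063 to 11.94) overlapped. The highest genes of these 5 lists were Tek, Reln, Cspg4, Mbp and Pparg, and the groups overlapped for each of them. The called genes of other cells, Acan aside, were lower after IC and are named after their values were seen. Kdr, a receptor for vascular endothelial growth factor, changed by −0.70 on the log2 scale (adjusted p = 3.45e-05 in DESeq2 and 0.0537 in edgeR) and was called with each library left out. The others were Cdh5 (above), Mmrn1 of lymphatic endothelium (−0.64, adjusted p = 0.0141), Myh11 of smooth muscle (−0.96, 0.0131), Myh1 of skeletal muscle (−2.96, 0.00311) and Myf5 of myogenic cells (−2.08, 0.000122). None of the last 4 was called in edgeR (adjusted p of 0.252, 0.237, 0.195 and 0.107). Mmrn1 was not called in DESeq2 when IC replicate 3 (adjusted p = 0.0566) or vehicle replicate 1 (0.507), 2 (0.552) or 3 (0.0706) was left out. Of the fits that left a library out, Myh11 was called only in that without IC replicate 1, with adjusted p-values of 0.107 to 0.374 in the other 5 fits. Myh1 was not called without vehicle replicate 2 (0.0739) and had no adjusted p without vehicle replicate 1, and Myf5 was not called without IC replicate 2 (0.292) or vehicle replicate 2 (0.346).

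The 5 macrophage markers in the table summed to 23.42 to 35.20 CPM after IC and 25.92 to 31.63 after vehicle, most of it Cd68 (21.92 to 31.37 and 22.58 to 28.65), with C1qb and Cx3cr1 at 0 in some libraries, and 1 lymphocyte marker in the table (Cd79a) had at most 2.927. The 8 general fibroblast genes summed to 45998 to 47950 CPM after IC and 47175 to 57550 after vehicle, and none was at 0. These were the highest sums of these lists, and the groups overlapped only through vehicle replicate 1.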

How the data were processed

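Total RNA was sequenced from sorted mouse synovial fibroblasts in 6 libraries, 3 IC and 3 vehicle, grouped by the sample labels. The authors deposited a table of raw counts, 1 row per gene, made with Trim Galore, HISAT2 (build mm10) and featureCounts. Versions, annotation and use of strand are not given in the sources used here, and the labels and the methods name different library kits.

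The 10 markers, all other lists and the rule for naming were chosen with earlier results of these data known. All markers were described. From each companion, partner or family list, the called genes (up to 3 by adjusted p) and the gene with the highest level per kilobase were named, with every gene of the HtrA, TspanC8 and CLIC families. Of the sublining and fibroblast lists the called genes were named, and of other cells' lists the sums and the gene with the highest level. Called genes and low or absent markers of other cells, Sox5, Sox9, Chad, Egfr and Cd55b were named after their values had been seen. The same holds for muscle markers other than Des. It also holds for sublining and fibroblast genes called only without vehicle replicate 1.

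A gene was tested where 3 or more libraries had 10 or more counts of it (19925 of 24348) in R (version 4.3.3) with the Wald test of DESeq2 (version 1.42.0), treatment as the only term, default settings and a Benjamini-Hochberg adjusted p under 0.05. The study's methods name DESeq2, and sva for batches, with no number of surrogate variables. DESeq2 gave no adjusted p to 3870 genes. Levels per kilobase used the union of exons of GENCODE M21 (GRCm38, the assembly that mm10 names), and log2 levels a pseudocount of 1.

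Alternatives changed 1 choice at a time, except that the block was also added to edgeR. The test was replaced by edgeR (version 4.0.16, quasi-likelihood) or limma-voom (limma version 3.58.1), and the scaling by TMM or total counts. The filter was dropped or set to a mean of 100 normalized counts, and independent filtering was switched off. A replicate block or 1 surrogate variable (sva version 3.50.0) was added, and single libraries were left out. In counts simulated for 19925 genes with 200 changed 2-fold, DESeq2 recovered 80.5% and 16.1% of its calls were false; edgeR recovered 74.5% with 6.29% false. At 1.5-fold these were 50.5% and 10.6% for DESeq2, and 36% and 6.49% for edgeR. The changed genes were drawn only from genes above a minimum mean count. Counts followed a negative binomial distribution with the dispersions that DESeq2 fitted, and no library was made to stand apart. The shares may therefore differ in the real data.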

Additional observations from a re-analysis of the deposited data

How the results depend on the processing

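The number of the 10 markers called, 3 in DESeq2, was 0 in edgeR, 1 in limma-voom (Prg4) and 1 to 5 with a library left out: 1 without IC replicate 2 or vehicle replicate 3 (Clic5 in both) and 5 without vehicle replicate 1. Over all genes the count, 419, was 37 in edgeR, 62 in limma-voom and 281 to 677 with a library left out, the highest without vehicle replicate 1. Replicate numbers mark no shared litter or batch in the labels. Deviations of same-numbered libraries from their group means correlated at r = −0.092, −0.164 and 0.025 over 13435 genes. With 3 libraries per group the deviations of a group sum to 0, so these values cannot show whether a litter or batch was shared. With the replicate block DESeq2 called 3 markers and 320 genes, and edgeR 1 marker (Prg4) and 22 genes. No library correlated best with the library of its own number in the other group. Of 160 marker values over the alternatives, 133 kept their direction and side of the threshold, 15 were no longer called, 4 became called and 8 turned sign, none of these 8 past the threshold in either fit. With 1 surrogate variable Htra4 was 0.06 and Cdh11 −0.01. Without libraries Htra4 ranged from −0.48 to 0.07, Cdh11 from −0.05 to 0.16 (−0.05, −0.02, −0.01 and −0.01 in the 4 that turned) and Pdpn from −0.09 to 0.14. The lining minus sublining difference was 0.07 or 0.08 in each setting. By longest transcript, 8 of the 10 markers kept their place in the order of levels, where Cd55 and Pdpn changed places. The cause of these shifts was not tested. With 3 libraries per group the precision differed by gene, from 95% intervals of −0.37 to −0.06 (Fap) to 0.45 to 1.42 (Prg4) on the log2 scale.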
